A study of Homo sapiens with 12 samples.

Results

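Lysosomes are the acidic organelles in which cells break down proteins, glycans and lipids. Their lumen holds hydrolases that work at low pH, a proton pump keeps that pH, and heavily glycosylated membrane proteins line the membrane. TFEB, a transcription factor released from the cytoplasm when nutrients run short, binds a short palindrome in the promoters of many lysosomal genes. SIRT1, the gene targeted here, encodes an NAD-dependent protein deacetylase with links to nutrient sensing. In gut epithelium lysosomes also take part in the handling of absorbed and recycled material.

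The genes described are 37 lysosomal genes: 9 proteases, 11 glycan hydrolases, 7 genes of lipid handling, 5 membrane proteins, 4 proton pump genes and TFEB. They were chosen by gene symbol, each through probes with a single symbol in the platform annotation, and a probe was kept where its detection p was below 0.01 on at least 2 of the 12 arrays. A kept probe was found for 34 of the 37 genes, among 11458 genes tested in all. CD63, a tetraspanin of late endosomes and lysosomes, had no probe with a single symbol here. CTSS, a cathepsin of antigen-presenting cells, and TFEB had 1 probe each, and neither was detected on any of the 12 arrays. Of the 34 tested genes 31 were detected on all 12 arrays, GAA and SMPD1 on 11 and HEXA on 5.

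The arrays were Illumina bead arrays of Caco-2, a cell line from a human colorectal adenocarcinoma that can take on features of small-bowel enterocytes. Cells were transfected with the plasmid pCMV-ENTRY Sirt1 (OE Sirt1, n = 3) or with pCMV-Neo as its control (the vector, n = 3). Others received either of a pair of SIRT1 siRNAs with no overlap in sequence (KD1, n = 2, and KD2, n = 2) or a scrambled siRNA of low GC content (n = 2), and these were lysed at 72 h. When the plasmid cells were lysed is not stated in the labels, so the control groups differ in the kind of transfection and possibly in time.

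Levels are log2 values after background correction, an added offset of 16 and quantile normalization. A difference of 1 is a doubling of the corrected intensity with that offset included, and the offset makes differences between dim levels smaller. Differences are given as log2 fold changes with their standard error (SE). Each p is from limma's moderated test in 1 fit of all 12 arrays, adjusted over the 11458 genes (Benjamini-Hochberg), and 0.05 was the threshold. All values are from bulk RNA, in which fewer cells with a transcript and less of it per cell cannot be told apart. The submitters call the replicates biological, but how the cultures were separated was not given, and 2 or 3 arrays a group limit the precision.

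Raw median intensities ran from 108.6 to 152.7, and 32.5% to 38.1% of probes were detected on an array. SIRT1 itself stood at 8.53, 8.58 and 8.98 with the vector, 8.66, 8.62 and 8.80 with OE Sirt1, 8.58 and 8.88 with the scrambled siRNA, 7.35 and 7.33 with KD1 and 7.87 and 7.18 with KD2. It fell with KD1, at -1.39 (SE 0.22, adjusted p = 0.0472), and with the mean of both siRNAs, at -1.30 (SE 0.19, adjusted p = 0.0258), whereas KD2 alone gave -1.21 (SE 0.22, adjusted p = 0.0507) and OE Sirt1 gave -0.0033. The KD1 call was lost without any 1 of its 4 arrays (-1.54 to -1.24, adjusted p of 0.13 to 0.362), and that of the mean without any 1 scrambled or KD1 array (-1.45 to -1.15, adjusted p of 0.0643 to 0.374). The plasmid carries SIRT1, and whether the probe lies within its insert was not analysed here, so the SIRT1 level gives no check of the label OE Sirt1. KD1 replicate 1 stood apart: over all genes its nearest array was OE Sirt1 replicate 3 (r = 0.99). Its correlation averaged 0.987 over the plasmid arrays and 0.982 over the other siRNA arrays, whereas the other siRNA arrays averaged 0.963 to 0.978 and 0.982 to 0.987. Markers of intestinal epithelium were all detected, VIL1, CDX2, EPCAM, CDH1, KRT8, KRT18 and SI on 12 arrays and KRT20 and ALPI on 3. Of 7 leukocyte markers PTPRC, CD3E and MS4A1 were detected on 0 arrays and ITGAM on 1. The other 3 (CD14, CSF1R and AIF1) were detected on 12 arrays, and their mean centred level was 0.806 and 0.905 in the scrambled controls, -0.461 to -0.266 with the vector, -0.497 to -0.343 with OE Sirt1, -0.471 and 0.292 with KD1 and 0.0316 and 0.738 with KD2. Of 8 fibroblast markers DCN and THY1 were detected on 0 arrays and 6 on 12. The mean centred level of these 6 was -0.21 to -0.161 with the vector, -0.106 to -0.0391 with OE Sirt1, -0.0364 and 0.0646 with the scrambled siRNA, 0.143 and 0.348 with KD1 and 0.108 and 0.151 with KD2. Of these 6, 4 lay above and 2 below 0 with KD1 (-0.393 to +0.83), and 3 above and 3 below with KD2 (-0.637 to +0.99). COL3A1 alone passed, at +0.83 (SE 0.13, adjusted p = 0.0472) with KD1 and +0.99 (SE 0.13, adjusted p = 0.0122) with KD2. The KD1 call was lost without any 1 of its 4 arrays (0.708 to 0.95), and the KD2 call without any 1 (0.884 to 1.1) except KD2 replicate 2 (1.08). The part of these differences between arrays in the results that follow was not tested.

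The promoters of 27 of the 37 genes were at hand from RefSeq (build GRCh38.p14) as 39 windows, each running from 250 bases before to 50 after a start. A gene was counted if any of its windows held a match. The palindrome CACGTG, the core of the site that TFEB binds, lay in 8 of these 27 genes (29.6%) and in 8.77% of 27305 genes with a promoter. By window it lay in 8 of 39, against 7.26% of 35116. Its longer form TCACGTGA, which contains it, lay in 5 of 27 genes (18.5%) and in 1.18% of all. By window this form lay in 5 of 39, against 0.98%. Because both are palindromes, a match on one strand is a match on the other. The 8 genes were CTSA, CTSD, GAA, NEU1, LAMP1, MCOLN1, ATP6V0D1 and the unmeasured CD63. The motif was searched because TFEB binds it in the promoters of many lysosomal genes, so these shares are not an independent test. A match is a description of the sequence and not of binding. A stretch of 30 bases around a match is shown for each of the 7 measured genes, because it is what they share beyond the lysosome, with the motif in capitals and the gene's own strand read 5′ to 3′. It lies at chr19:7522571-7522600 (plus strand) for MCOLN1, chr17:80101493-80101522 (plus) for GAA, chr20:45891298-45891327 (plus) for CTSA, chr13:113297226-113297255 (plus) for LAMP1, chr16:67481199-67481228 (minus) for ATP6V0D1, chr11:1763957-1763986 (minus) for CTSD and chr6:31862930-31862959 (minus) for NEU1.
MCOLN1: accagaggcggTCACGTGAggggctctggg
GAA: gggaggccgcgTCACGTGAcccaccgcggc
CTSA: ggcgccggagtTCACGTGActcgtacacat
LAMP1: cgcggcgcagcTCACGTGAcaagcgctgcc
ATP6V0D1: cccccttatggTCACGTGAggcgcttgcgc
CTSD: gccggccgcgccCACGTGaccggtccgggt
NEU1: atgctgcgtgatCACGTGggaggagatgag

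Of these 7 genes 0 passed the threshold in any of the 6 comparisons. By the brightest probe of each gene their log2 fold changes ran from -0.15 to +0.26 with OE Sirt1, -0.24 to +0.16 with KD1 and -0.32 to +0.05 with KD2. The 18 tested genes whose promoter was searched and held no match ran from -0.14 to +0.23, -0.42 to +0.54 and -0.39 to +0.88, and for the other 9 tested genes no promoter was searched.

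Across the 12 arrays the brightest probe of each lysosomal gene stayed within 1 log2 unit, whereas 7 of the 18 other kept probes of these genes ranged over more, up to 1.48 (an IDS probe). By the brightest probe the range of a gene's level over the arrays was 0.593 at the median of the 34 genes and 0.977 at most (ATP6V0D1), whereas 28% of all genes ranged over more than 1 unit, and the median of all genes was 0.757. Among genes detected on every array the median range was 0.561 for 31 lysosomal genes and 0.662 for 9036 genes in all, of which 16.5% ranged over more than 1 unit. The smallest range was that of NPC2 (0.203), a lumenal cholesterol carrier. Within groups the median SD was 0.132 for the lysosomal genes and 0.18 for all genes, or 0.128 and 0.156 among genes detected on every array. The median SE of a lysosomal log2 fold change was 0.118 for OE Sirt1 against the vector and 0.145 for either siRNA against the scrambled control.

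With OE Sirt1, the comparison that asks what added SIRT1 does, 0 of the 34 lysosomal genes passed by limma, against 0% of all genes. Their median log2 fold change was 0.00498, against 0.0148 for all genes, with 17 above and 17 below 0. At an unadjusted p under 0.05 there was 1 gene, NAGLU, against 3.53% of all genes. The groups did not overlap for 2 genes that lay higher (NAGLU and SMPD1, against 5.13% of all genes) and 1 that lay lower (FUCA1, against 3.26%). The 95% intervals of the 34 genes, each for 1 gene and not adjusted for their number, lay between -0.65 (ASAH1) and +0.68 (GAA). HEXA was undetected on the vector arrays, so its interval is no measured bound. Because the SIRT1 level gives no check of the label, the intervals describe the difference between the groups and set no limit on an effect of added SIRT1.

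With the siRNAs 1 lysosomal gene passed. CTSZ, the cysteine carboxypeptidase cathepsin Z, rose 1.84-fold with KD2, the only one of the 34 to pass there, against 0.436% of all genes (0.105% higher). With KD1 0 of 34 passed, against 0.175% of all genes, and 3 genes lay higher and 1 lower at an unadjusted p under 0.05 (3.75% and 5.44% of all genes). Without KD1 replicate 1 the count with KD1 was 0 as well. With the mean of both siRNAs CTSZ again was the 1 gene that passed, against 0.201% of all genes (0.0524% higher), and the comparisons share the 2 scrambled arrays. The median of the 34 genes was -0.0189 with KD1, -0.0168 with KD2 and -0.0175 with the mean, against -0.00576, -0.0275 and -0.0196 for all genes. The groups did not overlap for 9 higher and 7 lower genes with KD1, where 18.1% and 20.1% of all genes did so, and for 8 higher and 10 lower with KD2, where 17.9% and 24.3% did. For the mean this was so for 6 higher and 4 lower genes, against 7.24% and 9.3%.

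Between the siRNAs 0 of 34 passed (KD2 minus KD1), against 0.62% of all genes, with 2 higher and 2 lower at an unadjusted p under 0.05 (5.11% and 6.97% of all genes). The groups did not overlap for 4 higher and 6 lower genes, against 16.2% and 20.2% of all genes. Between the controls, which differ in the kind of transfection, 3 of 34 passed (scrambled minus vector), against 5.04% of all genes. NPC1 and LIPA were higher with the scrambled siRNA (3.78% of all genes were) and CTSZ was lower (1.27%). The groups did not overlap for 11 higher and 7 lower genes, against 22.1% and 22% of all genes. The median of the 34 genes there was 0.0363, against -0.00626 for all genes.

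**Figure D1:**
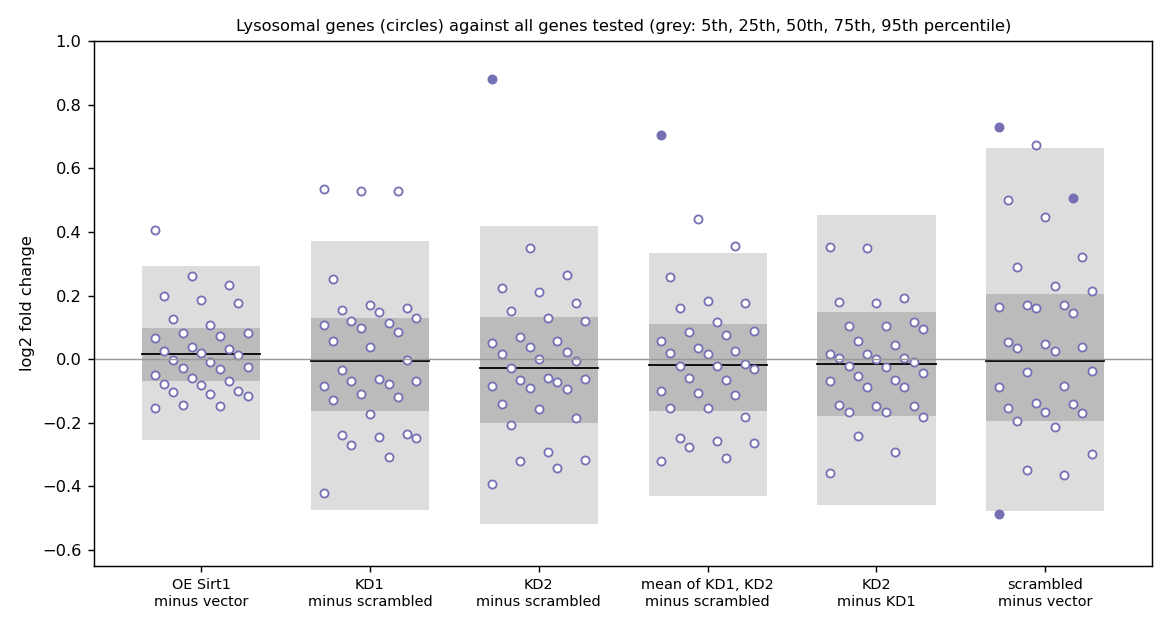
Log2 fold change (vertical axis) of the 34 lysosomal genes (circles, filled where the adjusted p was under 0.05) in 6 comparisons. The pale bar spans the 5th to 95th and the dark bar the 25th to 75th percentile of all 11458 genes, with the median as a line; the lysosomal genes outside the pale bars were NAGLU with OE Sirt1, CTSC, CTSZ and MAN2B1 with KD1 and with the mean, CTSZ with KD2, and CTSZ, GAA and NPC1 between the controls.

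Of the 8 tested proteases CTSZ passed with KD2, with the mean of both siRNAs and between the controls, and the other 7 did not pass in any comparison. CTSZ stood at 9.00, 8.90 and 8.61 with the vector, 8.66, 8.63 and 8.79 with OE Sirt1, 8.33 and 8.37 with the scrambled siRNA, 8.87 and 8.90 with KD1 and 9.24 and 9.23 with KD2. The scrambled arrays were the lowest of the 12 and the KD2 arrays the highest, and the KD1 arrays lay above the scrambled arrays and within the range of the vector arrays. The log2 fold change was +0.88 (SE 0.14, adjusted p = 0.0223) with KD2, +0.53 (SE 0.14, adjusted p = 0.227) with KD1 and +0.71 (SE 0.12, adjusted p = 0.0493) with their mean. The siRNAs gave +0.35 (SE 0.14, adjusted p = 0.328) for KD2 minus KD1, and the difference between them did not pass. Between the controls CTSZ was at -0.49 (SE 0.12, adjusted p = 0.0497), 1.4-fold lower with the scrambled siRNA, and with OE Sirt1 at -0.14. Both the rise with KD2 and the lower level between the controls rest on the same 2 scrambled arrays, which lay 0.0453 apart. The KD2 call was lost when any 1 array of its groups was left out: the log2 fold change was 0.859 to 0.904, with adjusted p of 0.0743 to 0.174. The call with the mean was likewise lost without any 1 of its 6 arrays (0.683 to 0.728, adjusted p of 0.0861 to 0.487), and that between the controls without any 1 of 5 (-0.509 to -0.407, adjusted p of 0.12 to 0.222) except vector replicate 3 (-0.597, 0.0467). With arrays scaled by their median in place of quantiles CTSZ gave 0.515 with KD2 (adjusted p = 0.308), 0.856 above the median of all genes, and -0.0753 between the controls, 0.428 below it.

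CTSC, which activates serine proteases of immune cells by trimming dipeptides, stood at 10.78, 10.75 and 10.64 with the vector, 10.63, 10.69 and 10.57 with OE Sirt1, 10.31 and 10.44 with the scrambled siRNA, 10.89 and 10.94 with KD1 and 10.59 and 10.52 with KD2. Its KD1 arrays were the highest of the 12 and its scrambled arrays the lowest. It gave +0.54 (SE 0.11, adjusted p = 0.119) with KD1, +0.18 (SE 0.11, adjusted p = 0.541) with KD2 and -0.36 (SE 0.11, adjusted p = 0.229) for KD2 minus KD1. The KD1 value was 0.557 without KD1 replicate 1. Both other CTSC probes gave smaller values with KD1, +0.35 and +0.098. Between the controls CTSC gave -0.35 (SE 0.10, adjusted p = 0.0738), so that for CTSC as for CTSZ the scrambled arrays lay below the vector arrays.

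TPP1, a tripeptidyl peptidase lost in a childhood form of neuronal ceroid lipofuscinosis, stood at 9.45, 9.24 and 9.31 with the vector, 9.27, 9.33 and 9.17 with OE Sirt1, 9.86 and 9.70 with the scrambled siRNA, 9.50 and 9.71 with KD1 and 9.24 and 9.64 with KD2. It gave -0.34 (SE 0.15, adjusted p = 0.392) with KD2 and +0.45 (SE 0.14, adjusted p = 0.0933) between the controls, scrambled replicate 1 being the highest array and KD1 replicate 2 lying level with scrambled replicate 2. CTSL, a cysteine endopeptidase, stood at 11.91, 11.61 and 11.89 with the vector, 11.83, 11.95 and 11.70 with OE Sirt1, 11.84 and 11.43 with the scrambled siRNA, 11.46 and 11.19 with KD1 and 11.33 and 11.31 with KD2. Its scrambled arrays were 0.414 apart, wider than the differences with KD1, -0.31 (SE 0.17, adjusted p = 0.631), and KD2, -0.32 (SE 0.17, adjusted p = 0.481). Without scrambled replicate 1 the KD1 value was -0.1, and without replicate 2 it was -0.514.

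CTSA, a carboxypeptidase that also shields beta-galactosidase and neuraminidase, stood at 9.43, 9.13 and 9.22 with the vector, 8.92, 9.41 and 9.00 with OE Sirt1, 9.01 and 8.92 with the scrambled siRNA, 9.05 and 9.20 with KD1 and 8.87 and 9.09 with KD2. The vector and OE Sirt1 arrays overlapped, and the difference between them was -0.15 (SE 0.14, adjusted p = 1). The aspartic protease CTSD and the cysteine proteases CTSB and CTSH gave log2 fold changes of -0.24, -0.083 and -0.12 with KD1 and -0.065, +0.021 and -0.18 with KD2, and 0 of the 3 passed.

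**Figure D2:**
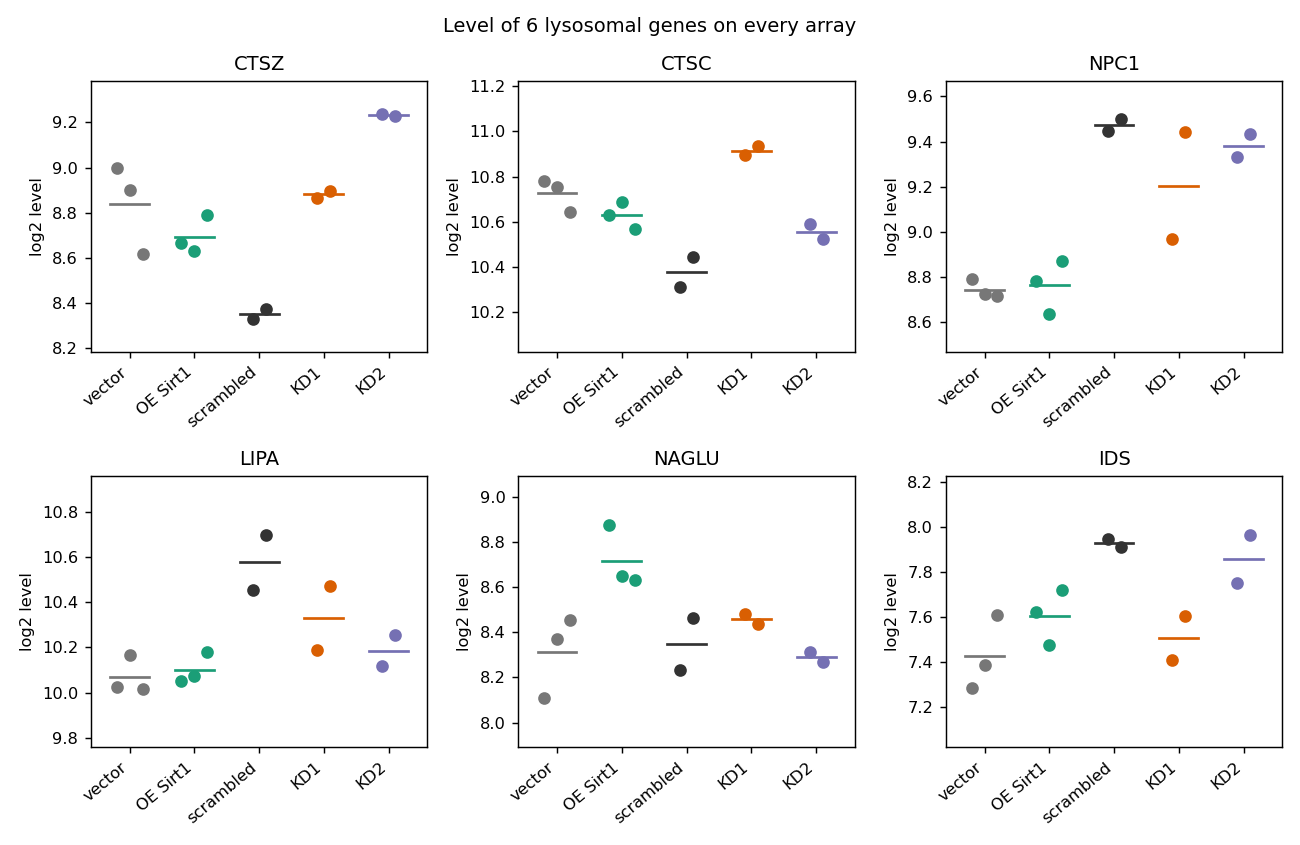
Log2 level (vertical axis, each panel spanning the same 1.2 units) of CTSZ, CTSC, NPC1, LIPA, NAGLU and IDS on every array of the 5 groups, with each array as a point and the group mean as a line. The scrambled arrays are the lowest for CTSZ and CTSC, and for NPC1 the scrambled and KD2 arrays lie above all 6 plasmid arrays.

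Of the 11 glycan hydrolases 0 passed in any comparison. NAGLU, which removes N-acetylglucosamine from heparan sulfate, had the largest value of the 34 genes with OE Sirt1. It stood at 8.11, 8.37 and 8.46 with the vector, 8.87, 8.65 and 8.63 with OE Sirt1, 8.23 and 8.46 with the scrambled siRNA, 8.48 and 8.44 with KD1 and 8.31 and 8.27 with KD2. All 3 OE Sirt1 arrays lay above all other arrays, and the log2 fold change against the vector was +0.41 (SE 0.12, adjusted p = 0.98), with a 95% interval of 0.14 to 0.67 and an unadjusted p of 0.0064. With KD1 it was +0.11 and with KD2 -0.059. The next highest with OE Sirt1 among the 34 genes was GAA, the acid alpha-glucosidase of glycogen breakdown, at 5.99, 6.02 and 5.66 with the vector, 5.82, 6.39 and 6.25 with OE Sirt1, 6.61 and 6.52 with the scrambled siRNA, 6.17 and 6.48 with KD1 and 5.99 and 6.55 with KD2. Its vector and OE Sirt1 arrays overlapped, and both scrambled arrays lay above all vector arrays. It gave +0.26 (SE 0.19, adjusted p = 1) for OE Sirt1 and +0.67 (SE 0.21, adjusted p = 0.0915) between the controls. The other kept GAA probe, ILMN_1765801, was detected on 9 arrays and gave +0.20 with OE Sirt1. On it the scrambled arrays (6.05 and 6.08) overlapped the vector arrays (5.49, 6.08 and 5.84). The 2 probes differed in sign with the siRNAs, at -0.24 and +0.35 with KD1 and -0.29 and +0.17 with KD2.

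MAN2B1, the lysosomal alpha-mannosidase, stood at 6.79, 6.58 and 6.18 with the vector, 6.82, 6.69 and 6.64 with OE Sirt1, 6.30 and 6.40 with the scrambled siRNA, 6.95 and 6.82 with KD1 and 6.85 and 6.55 with KD2. Every array of KD1 and KD2 lay above both scrambled arrays, at +0.53 (SE 0.19, adjusted p = 0.375) with KD1 and +0.35 (SE 0.19, adjusted p = 0.472) with KD2, but the vector arrays alone ranged from 6.18 to 6.79. Without KD1 replicate 1 the KD1 value was 0.467. IDS, a sulfatase of heparan and dermatan sulfate, stood at 7.29, 7.39 and 7.61 with the vector, 7.62, 7.48 and 7.72 with OE Sirt1, 7.95 and 7.91 with the scrambled siRNA, 7.41 and 7.61 with KD1 and 7.75 and 7.96 with KD2. The KD1 arrays lay below the scrambled ones, at -0.42 (SE 0.15, adjusted p = 0.374), and the value was -0.324 without KD1 replicate 1. It gave -0.072 (SE 0.15, adjusted p = 0.89) with KD2 and +0.35 (SE 0.15, adjusted p = 0.374) for KD2 minus KD1.

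IDS had 2 other kept probes. On the fit of all 15104 kept probes, ILMN_1815445 gave +0.99 (SE 0.15, adjusted p = 0.0143) between the controls, where the used probe gave +0.50 (SE 0.14, adjusted p = 0.0669), and 3.79% of all probes passed (2.79% higher). It gave -0.69 (SE 0.16, adjusted p = 0.203) with KD1 and -0.35 (SE 0.16, adjusted p = 0.414) with KD2. The dimmest probe, ILMN_1798448, was detected on both arrays of KD1 and of KD2 and on 0 of the other arrays. It gave +0.34 with KD1 and +0.41 with KD2, opposite in sign to the other IDS probes. Because its scrambled arrays were undetected, neither value is a measured difference from the scrambled control. These probes were singled out after their values were seen.

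GUSB, a beta-glucuronidase often used as a reference gene, stood at 10.05, 9.88 and 9.83 with the vector, 9.74, 9.95 and 9.99 with OE Sirt1, 9.81 and 9.76 with the scrambled siRNA, 9.81 and 9.95 with KD1 and 9.63 and 9.65 with KD2. Its KD2 arrays were the lowest of the 12, at -0.24 (SE 0.13, adjusted p = 0.486) for KD2 minus KD1. With both siRNAs the other 6 of the 11 (GLA, GLB1, HEXA, MANBA, NEU1 and FUCA1, which act on galactose, hexosamine, mannose, sialic acid and fucose ends) gave values from -0.11 (GLA) to +0.15 (MANBA) with KD1 and -0.092 (GLA) to +0.21 (MANBA) with KD2. HEXA was near background, detected on 5 arrays.

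Among the 7 genes of lipid handling NPC1 and LIPA passed between the controls and 0 passed elsewhere. NPC1, the membrane protein that exports cholesterol from the lysosome, stood at 8.79, 8.73 and 8.72 with the vector, 8.78, 8.63 and 8.87 with OE Sirt1, 9.45 and 9.50 with the scrambled siRNA, 8.97 and 9.44 with KD1 and 9.33 and 9.43 with KD2. The scrambled, KD2 and KD1 arrays all lay above the 6 plasmid arrays, and KD1 replicate 1 was the lowest of the siRNA arrays. Scrambled minus vector gave +0.73 (SE 0.14, adjusted p = 0.0224), 1.66-fold. The call was lost without any 1 of the 5 control arrays, at 0.705 to 0.758 with adjusted p of 0.0529 to 0.152. NPC1 gave -0.27 (SE 0.15, adjusted p = 0.654) with KD1, which became -0.0319 without KD1 replicate 1, and -0.093 with KD2.

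LIPA, the acid lipase that frees cholesterol and fatty acids, stood at 10.02, 10.17 and 10.02 with the vector, 10.05, 10.07 and 10.18 with OE Sirt1, 10.45 and 10.70 with the scrambled siRNA, 10.19 and 10.47 with KD1 and 10.12 and 10.26 with KD2. Scrambled minus vector gave +0.51 (SE 0.13, adjusted p = 0.047), 1.42-fold, and the call was lost without any 1 of the 5 control arrays (0.384 to 0.631, adjusted p of 0.0778 to 0.295). With KD2 it gave -0.39 (SE 0.14, adjusted p = 0.263) and with KD1 -0.25 (SE 0.14, adjusted p = 0.643). The KD2 arrays lay among or just above the vector arrays.

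SMPD1, the acid sphingomyelinase, stood at 6.02, 6.02 and 5.79 with the vector, 6.34, 6.10 and 6.09 with OE Sirt1, 6.35 and 6.18 with the scrambled siRNA, 5.94 and 6.45 with KD1 and 6.24 and 5.97 with KD2. Its OE Sirt1 arrays lay just above its vector arrays, at +0.23 (SE 0.15, adjusted p = 1), but its other kept probe, ILMN_1741684, gave -0.20 with groups that overlapped, and the mean of both probes gave 0.0163. ASAH1, the acid ceramidase, stood at 7.00, 7.29 and 6.40 with the vector, 6.54, 7.19 and 6.62 with OE Sirt1, 7.05 and 6.66 with the scrambled siRNA, 6.92 and 7.30 with KD1 and 7.04 and 7.21 with KD2. Its vector arrays alone spanned 0.886, and it gave +0.25 (SE 0.29, adjusted p = 0.862) with KD1 and +0.27 (SE 0.29, adjusted p = 0.765) with KD2. The cholesterol carrier NPC2, the saposin precursor PSAP and the thioesterase PPT1 gave -0.13, -0.067 and +0.13 with KD1 and -0.085, -0.064 and +0.22 with KD2. Their 95% intervals with KD2 ran -0.31 to 0.14, -0.31 to 0.18 and -0.026 to 0.47.

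**Figure D3:**
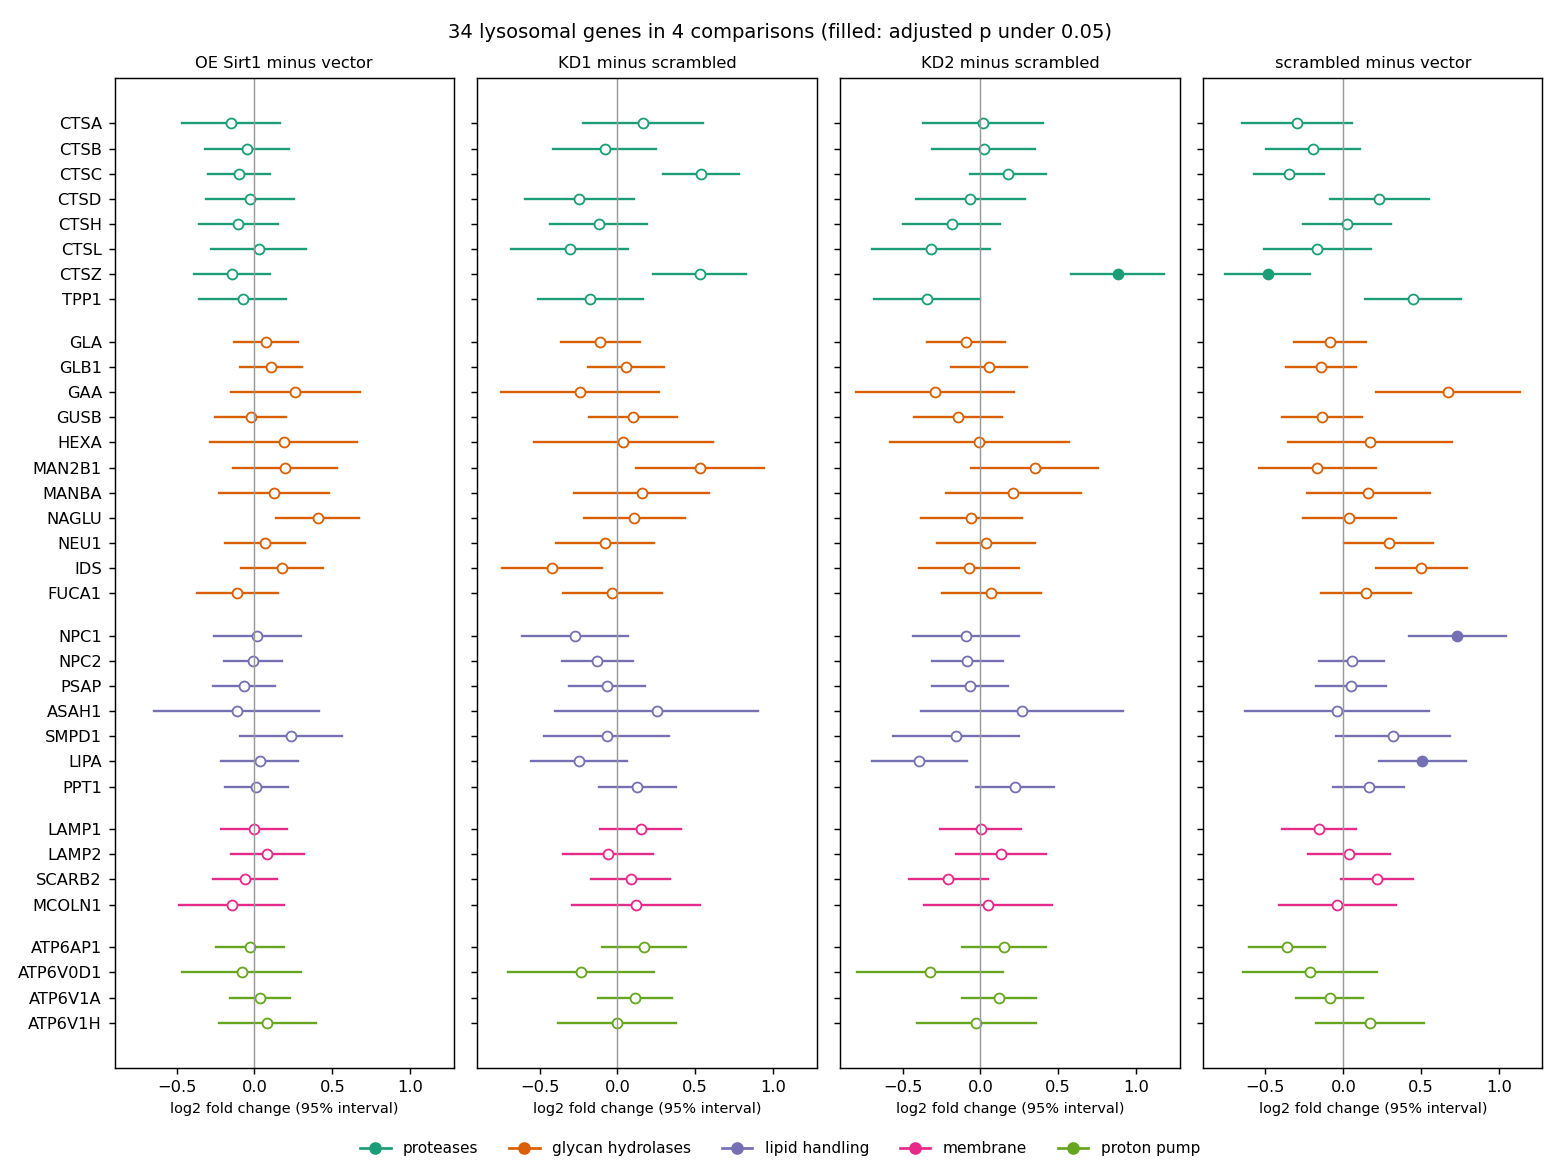
Log2 fold change (horizontal axis, point) and 95% interval (bar) of the 34 lysosomal genes, ordered by role, in 4 comparisons; filled points had an adjusted p under 0.05. CTSZ is filled with KD2 and between the controls, NPC1 and LIPA between the controls, and no point is filled with OE Sirt1 or KD1.

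Of the 4 measured membrane proteins 0 passed by the brightest probe of each gene. LAMP1, the most abundant lysosomal membrane glycoprotein in many cells, gave +0.15 (SE 0.12, adjusted p = 0.774) with KD1 and +0.0016 (SE 0.12, adjusted p = 0.998) with KD2. SCARB2, the receptor that carries glucocerebrosidase to the lysosome, stood at 11.76, 11.75 and 11.62 with the vector, 11.56, 11.68 and 11.71 with OE Sirt1, 11.98 and 11.87 with the scrambled siRNA, 12.00 and 12.02 with KD1 and 11.65 and 11.78 with KD2. Its KD2 arrays lay below both the KD1 and the scrambled arrays, at -0.29 (SE 0.11, adjusted p = 0.341) for KD2 minus KD1. MCOLN1, a calcium channel of the lysosomal membrane, stood at 6.56, 6.79 and 6.52 with the vector, 6.47, 6.67 and 6.30 with OE Sirt1, 6.75 and 6.43 with the scrambled siRNA, 6.89 and 6.53 with KD1 and 6.79 and 6.49 with KD2. It gave -0.15 (SE 0.15, adjusted p = 1) with OE Sirt1, and its groups overlapped in all of the 6 comparisons.

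LAMP2, whose spliced forms A, B and C serve different routes of autophagy, had 6 kept probes that disagreed with KD2. Its brightest probe, ILMN_1673282, is annotated to the form A transcript and stood at 11.22, 10.90 and 10.99 with the vector, 11.11, 11.17 and 11.09 with OE Sirt1, 11.09 and 11.06 with the scrambled siRNA, 10.95 and 11.08 with KD1 and 11.12 and 11.29 with KD2. It gave +0.13 (SE 0.13, adjusted p = 0.732) with KD2 and +0.19 (SE 0.13, adjusted p = 0.601) for KD2 minus KD1. ILMN_1752351, annotated to the form B transcript, stood at 10.20, 10.19 and 10.14 with the vector, 10.11, 10.10 and 10.30 with OE Sirt1, 10.24 and 10.37 with the scrambled siRNA, 10.21 and 10.03 with KD1 and 9.57 and 9.23 with KD2. Its KD2 arrays were the lowest of the 12, and all other arrays lay within 10.03 and 10.37.

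ILMN_2279961, also annotated to form B, stood at 10.42, 10.51 and 10.80 with the vector, 10.75, 10.54 and 10.82 with OE Sirt1, 10.83 and 10.92 with the scrambled siRNA, 10.59 and 10.63 with KD1 and 10.17 and 9.88 with KD2. Again the KD2 arrays were the lowest. On the fit of all 15104 kept probes, where 0.305% passed with KD2 (0.232% lower), ILMN_1752351 gave -0.91 (SE 0.14, adjusted p = 0.0325), 1.87-fold lower, and ILMN_2279961 gave -0.85 (SE 0.16, adjusted p = 0.0665). With KD1 they gave -0.18 (SE 0.14, adjusted p = 0.796) and -0.26 (SE 0.16, adjusted p = 0.723), and for KD2 minus KD1 -0.72 (SE 0.14, adjusted p = 0.0656) and -0.59 (SE 0.16, adjusted p = 0.185).

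The other 3 LAMP2 probes did not lie low with KD2. ILMN_2243687, of form A, gave +0.17 (SE 0.17, adjusted p = 0.751), ILMN_1659753, also annotated to form B, gave +0.11 (SE 0.12, adjusted p = 0.775), and ILMN_1917290, annotated to a separate cDNA, gave -0.092 (SE 0.14, adjusted p = 0.843). The annotation thus does not divide the probes that lay low from the others, and where each probe binds was not analysed here. The ILMN_1752351 call was lost without scrambled replicate 1 (-0.97, adjusted p = 0.174), scrambled replicate 2 (-0.843, 0.26) or KD2 replicate 3 (-0.734, 0.134), and it held when KD2 replicate 2 was left out (-1.08, 0.0319). It was also lost with the groups compared fitted alone (-0.906, 0.336). ILMN_2279961 passed with KD2 in 4 of 9 alternative runs on all arrays. Over these 9 its value was -1.18 to -0.784, with limma adjusted p of 0.00257 to 0.339. The probes were singled out after their values were seen, and the difference between probes was not tested.

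**Figure D4:**
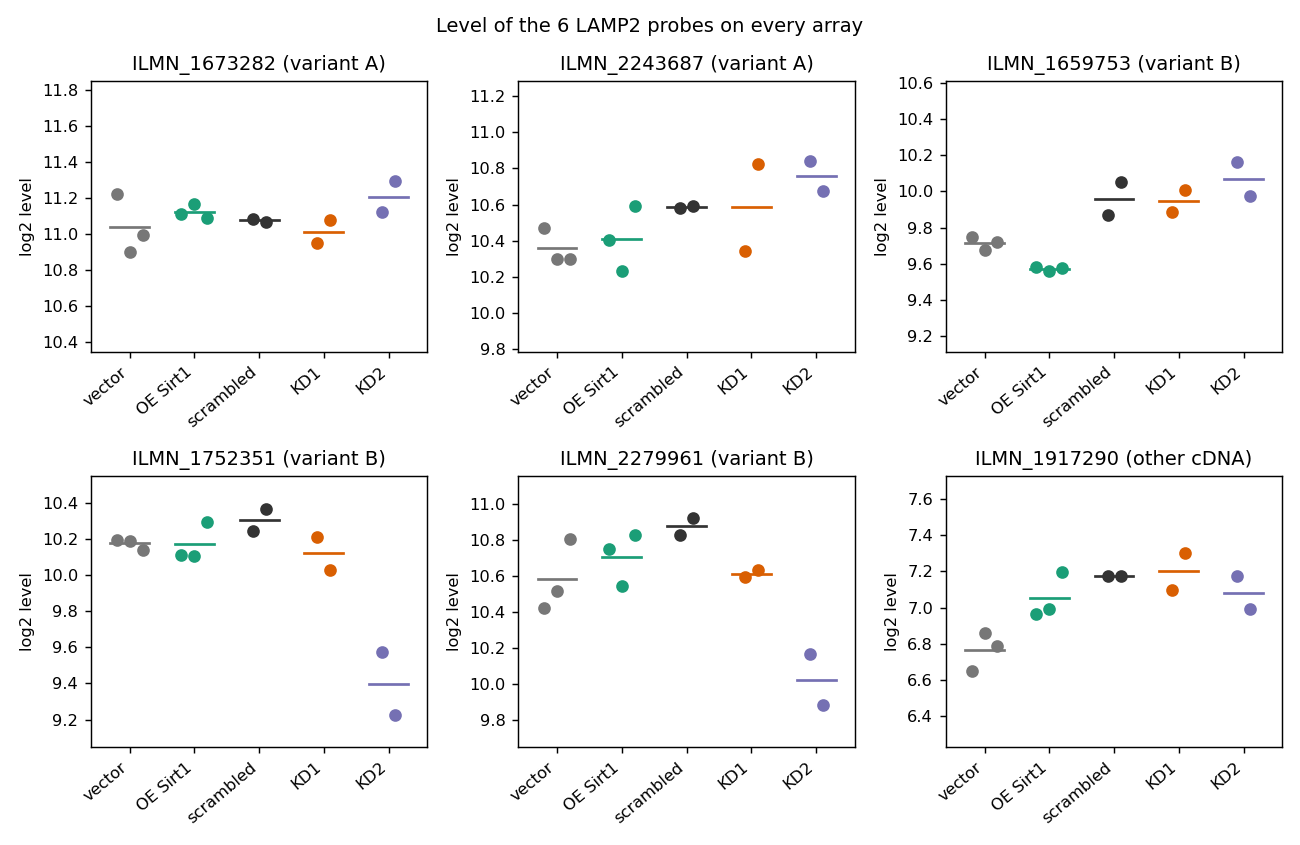
Log2 level (vertical axis, each panel spanning 1.5 units) of the 6 LAMP2 probes on every array of the 5 groups, with each array as a point and the group mean as a line; panel titles give the probe and the transcript form it is annotated to. The KD2 arrays lie below all other arrays for ILMN_1752351 and ILMN_2279961 and not for the other 4 probes.

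Of the 4 proton pump genes 0 passed in any comparison. ATP6V0D1, a subunit of the membrane sector, stood at 9.57, 9.36 and 9.45 with the vector, 9.16, 9.72 and 9.25 with OE Sirt1, 9.37 and 9.12 with the scrambled siRNA, 9.21 and 8.81 with KD1 and 9.11 and 8.74 with KD2. Arrays of the same group lay up to 0.56 apart, and it gave -0.23 (SE 0.21, adjusted p = 0.819) with KD1 and -0.32 (SE 0.21, adjusted p = 0.57) with KD2. ATP6AP1, an accessory protein of the pump, stood at 11.81, 11.71 and 11.74 with the vector, 11.67, 11.82 and 11.68 with OE Sirt1, 11.41 and 11.37 with the scrambled siRNA, 11.62 and 11.50 with KD1 and 11.41 and 11.66 with KD2. Both scrambled arrays were below all other arrays, although KD2 replicate 2 lay less than 0.01 above scrambled replicate 1, at -0.36 (SE 0.11, adjusted p = 0.0863) between the controls and +0.17 (SE 0.12, adjusted p = 0.736) and +0.15 (SE 0.12, adjusted p = 0.651) with KD1 and KD2. ATP6V1A, the catalytic subunit, gave +0.11 and +0.12, and ATP6V1H, a regulatory subunit, -0.0034 and -0.026.

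A wider list of 122 other lysosomal genes, of which 96 were tested, was tested in the same fit. By limma 0 of 96 passed with OE Sirt1, KD1, KD2 or the mean of both siRNAs, where 0%, 0.175%, 0.436% and 0.201% of all genes did. At an unadjusted p under 0.05 there were 2 (1 higher), 8 (2 higher), 15 (4 higher) and 10 (2 higher), against 3.53%, 9.19%, 12.7% and 10.5% of all genes. Their medians were 0.0268, -0.058, -0.0672 and -0.0715, against 0.0148, -0.00576, -0.0275 and -0.0196 for all genes. The tested genes were 27 of 38 further hydrolases, 22 of 26 membrane proteins, 16 of 21 pump genes, 8 of 10 genes of enzyme sorting, 20 of 22 genes of TFEB-related factors and nutrient signalling and 3 of 5 cystatins.

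Among the pump genes ATP6V1D, which encodes a subunit of the rotor stalk, differed between the siRNAs. It stood at 10.23, 10.25 and 10.38 with the vector, 10.45, 10.45 and 10.47 with OE Sirt1, 10.37 and 10.51 with the scrambled siRNA, 10.01 and 10.07 with KD1 and 10.63 and 10.71 with KD2. The KD2 arrays were the highest and the KD1 arrays the lowest of the 12, and KD2 minus KD1 gave +0.63 (SE 0.11, adjusted p = 0.034), 1.55-fold. Against the scrambled control neither siRNA passed, at -0.40 (SE 0.11, adjusted p = 0.254) with KD1 and +0.23 (SE 0.11, adjusted p = 0.416) with KD2. The call was lost without any 1 of the 4 arrays (0.592 to 0.671, adjusted p of 0.0714 to 0.197), KD1 replicate 1 among them (0.603, 0.17), with median scaling (0.565, 0.999) and with the siRNA groups compared fitted alone (0.631, 0.712). In enzyme sorting the smallest p belonged to GNPTAB, which builds the mannose 6-phosphate tag of lysosomal enzymes, at -0.68 (SE 0.16, adjusted p = 0.108) with KD2.

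Between the controls 6 of the 96 passed, 5 higher and 1 lower (scrambled minus vector), against 5.04% of all genes (3.78% higher, 1.27% lower). RRAGD, a GTPase that links amino acids to mTORC1 and is a known TFEB target, was 4.2-fold higher, at 6.89, 7.07 and 7.43 with the vector, 7.19, 6.56 and 7.34 with OE Sirt1, 9.39 and 9.01 with the scrambled siRNA, 7.64 and 9.09 with KD1 and 8.55 and 9.74 with KD2. The scrambled, KD2 and KD1 arrays were above the plasmid arrays, and KD1 replicate 1 was the lowest of the siRNA arrays. CD68, a lysosomal glycoprotein abundant in macrophages, gave +1.06 (SE 0.17, adjusted p = 0.015) and SIDT2, a lysosomal nucleic acid transporter, +0.51 (SE 0.12, adjusted p = 0.0377). The cathepsin CTSK and the cystatin CST6, an inhibitor of cysteine cathepsins, were detected on both scrambled arrays and on 0 vector arrays. CTSK was at least 1.21-fold higher, its vector arrays being set to the lowest level detected on each, and for CST6 that rule gave no fold. CTSK was also detected on all 3 OE Sirt1 arrays (mean 5.978, against 6.12 with the scrambled siRNA), on 1 of 2 KD1 arrays and on 0 KD2 arrays. By the same rule CTSK was at least 1.1-fold higher with OE Sirt1 than with the vector (limma adjusted p = 0.916). LAPTM4B, a multi-spanning lysosomal membrane protein, gave -0.69 (SE 0.10, adjusted p = 0.0111), and with KD1 +0.61 (SE 0.11, adjusted p = 0.0701).

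RRAGD and SIDT2 did not pass when any 1 of the 5 control arrays was left out, with log2 fold changes of 1.88 to 2.26 and 0.393 to 0.627. Without scrambled replicate 1 or 2 the other 4 did not pass either, at 1.08 and 1.04 for CD68, -0.692 and -0.691 for LAPTM4B (-0.353 with median scaling, adjusted p = 0.347), with adjusted p of 0.213 and 0.205 for CTSK and 0.172 and 0.104 for CST6. CTSK also did not pass without vector replicate 1 (adjusted p = 0.114) or 3 (0.112), and CST6 without vector replicate 1 (0.0527) or 2 (0.0601). The leukocyte marker CSF1R was also higher with the scrambled siRNA, at +2.66 (SE 0.51, adjusted p = 0.0214), whereas PTPRC was detected on 0 arrays. Of the 6 tested fibroblast markers 3 lay above and 3 below 0 between the controls (-0.436 to +0.92). Of the 9 epithelial markers 5 lay above and 4 below (-0.99 to +0.33). Among these, the markers that passed were COL1A2, at +0.86, and PDGFRB, at +0.92, both higher, and KRT18, lower at -0.99 (SE 0.15, adjusted p = 0.0141). These 4 calls too were lost without scrambled replicate 1 or 2 (adjusted p of 0.0853 to 0.172). CSF1R and COL1A2 were also lost without vector replicate 1 or 3, and PDGFRB without any 1 vector array.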

How the data were processed

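RNA of 12 Caco-2 cultures was measured on Illumina bead arrays and read with GenomeStudio 2010.1, per the submitters' processing notes. The authors deposited an unnormalised intensity for each of 47323 probes, together with a detection p-value. The detection column holds 1 - p, since it rises with intensity (rank correlation of 0.985 or more per array). A second deposited table holds log2 values normalised by the authors, and no source used here names the method. The 47231 probes found in both tables were used.

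Background correction and quantile normalization used neqc (limma 3.58.1, R 4.3.3, offset 16), which estimates background from detection p. A probe was kept if detected (p below 0.01) on 2 or more arrays (19263, of which 15104 had 1 symbol), and each gene was taken by its brightest kept probe (11458 genes; 2946 had several). Groups come from the sample titles. Group means were fitted to all 12 arrays with lmFit and tested with eBayes (residual degrees of freedom 7, prior 3.63), two-sided, and 6 comparisons were made. The array files name no genome build.

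Values on every array are given for genes past the threshold and for the 3 highest and 3 lowest in each comparison. In the other lists genes past the threshold are named, or the smallest p where none passed. Arrays of a group without a detected value were set to the lowest level detected on each array, or to their own level if higher, for a bound on a fold. The genes, lists and tests were chosen with earlier results of these data known. The steps were tested on simulated data. Same-numbered arrays were checked for pairing over all genes after removing group means. Their correlations were -0.164, -0.11 and 0.0327 for the plasmid arrays and -0.359 to 0.145 for the siRNA arrays, so the numbers were not taken as pairs.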

Additional observations from a re-analysis of the deposited data

Results flagged for a closer look

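ATP6V1D differed between the siRNAs by a test of the difference itself, at 0.6314 for KD2 minus KD1 (limma adjusted p = 0.034), with all 4 arrays on the side of their group. PDGFRA, 1 of the 6 detected fibroblast markers, differed by -0.9628 (adjusted p = 0.0171), its levels being 9.60 and 9.44 with KD1, 8.59 and 8.51 with KD2 and 8.63 and 8.92 with the scrambled siRNA. Leaving out 1 of the 4 arrays ended the ATP6V1D call in each case and the PDGFRA call in 3 of 4.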

How the results depend on the processing

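With 2 or 3 arrays a group, the number of lysosomal genes past the threshold moved with most choices, and OE Sirt1 (0) and KD2 minus KD1 (0) kept their count under each alternative run. For KD1 the count of 0 became 1 (CTSC) on the authors' normalised values, without background correction and with a trended, robust variance. For KD2 the count of 1 became 0 with median scaling, with the groups compared fitted alone and with the replicate block, and for the mean it became 0 with these 3 and without a detection filter. Between the controls the count of 3 became 7 on the authors' values and without background correction, 6 with the trended variance, 5 with median scaling, and 1 (NPC1) without a filter and with the controls fitted alone. Over all genes the counts of 20 (KD1), 50 (KD2), 23 (the mean), 71 (KD2 minus KD1) and 578 (controls) were 75, 167, 91, 162 and 1057 on the authors' values, 77, 171, 72, 162 and 1011 with the trended variance and 0, 0, 1, 0 and 607 fitted alone. Leaving out 1 array took these counts to 0 to 1, 2 to 50, 2 to 36, 0 to 67 and 0 to 198: 0 genes passed between the controls without either scrambled array, 2 with KD2 without either, and 0 for KD2 minus KD1 without KD2 replicate 3. For lysosomal genes it gave 0 for KD2, 0 for the mean and 0 to 1 between the controls. The replicate numbers were not taken as pairs. With the replicate block CTSZ stood at 0.924 with KD2 (adjusted p = 0.118), NPC1 and IDS passed between the controls (count 2), all-gene counts were 2, 1, 4, 0 and 327, the LAMP2 probe ILMN_1752351 stood at -0.891 (adjusted p = 0.183), ATP6V1D stood at 0.576 for KD2 minus KD1 (adjusted p = 0.219), COL3A1 did not pass with either siRNA (adjusted p = 0.122 and 0.0857), and SIRT1 stood at -1.39 with KD1 (adjusted p = 0.136).

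Median scaling in place of quantiles shifted the median of all genes, to 0.265 with OE Sirt1, -0.229 with KD1, -0.341 with KD2, -0.289 with the mean, -0.103 for KD2 minus KD1 and 0.353 between the controls. Of all genes it called 1 higher and 32 lower with KD1 (5 and 15 with quantiles), 2 and 80 with KD2 (12 and 38), 0 and 66 with the mean (6 and 17), 0 and 1 for KD2 minus KD1 (19 and 52) and 1278 and 1 between the controls (433 and 145; 673 and 384 on the authors' values). The CTSZ value with KD2 was then 0.515 (adjusted p = 0.308), or 0.856 relative to the median of all genes. Between the controls it was -0.0753, or -0.428 relative to it. Signs turned for CTSA (0.127), MCOLN1 (0.0881) and CTSZ (0.139) with OE Sirt1, ASAH1 (-0.0986) and the LAMP2 probes ILMN_1673282 (-0.166), ILMN_1659753 (-0.239) and ILMN_2243687 (-0.145) with KD2, and CTSC (0.0184) between the controls. Relative to the median of all genes 0 of these 8 turned. The mean of a gene's probes turned LAMP2 to -0.157 for KD2 minus KD1, 3 of its 6 probes lying below 0 there, and without KD2 replicate 3 the LAMP2 probe ILMN_1917290 stood at 0.000915 with KD2 (-0.185 to 0.000915 over the 4 arrays left out).

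Taking quantiles after log2 rather than before, an alternative added after the data were seen, kept every count of lysosomal genes and brought SIRT1 with KD2 past the threshold (-1.2, adjusted p = 0.0492). It was 1 of 7 among the 10 alternative runs on all arrays in which SIRT1 passed with KD2. Over these 10 the value was -1.56 to -0.824, with limma adjusted p of 0.00237 to 0.31. Such runs ended the SIRT1 call with KD1 or with the mean 5 times. The alternatives on single LAMP2 probes, the other lysosomal genes and the cell type markers were also added after the data were seen. Slide as a block was not run, since the files name no slides. Where not stated, the cause of a change was not tested. Genes near background, such as HEXA and CTSK, are limited by signal.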
